A study of Homo sapiens with 8 samples.

Results

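*KCTD15*, *KCTD1*, *TFAP2A* and *TFAP2C* were followed in transduced breast epithelial cells, as 4 genes among the 13842 with a measured level. *KCTD15* was chosen by its log2 fold change with *MALINC1* in MCF10A, and the other 3 because their proteins are known to act with it. For these 4 genes the comparison of the vectors in MCF10A is therefore given as a description without a test, and so are the differences between the cell lines for *KCTD15*. The members were matched by gene symbol and all 4 were found in every library.

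RNA-seq had been performed on 2 breast epithelial lines of the same origin, each carrying either of 2 lentiviral constructs, with 2 libraries in each of 4 groups. MCF10A is an immortalized line of normal breast epithelium, and DCIS.COM is a line derived from the MCF10 series that models ductal carcinoma in situ. Cells of each line had been stably transduced with the empty pLOC vector (pLOC-empty) or with pLOC carrying the long non-coding RNA *MALINC1* (pLOC-*MALINC1*), and all 4 groups had been selected with blasticidin. The transduced populations concern overexpression, and no knockdown of *MALINC1* was measured in these libraries. The labels name no repeated transduction of a line with the same vector. An effect of *MALINC1* then cannot be told apart from other differences between the selected populations. The media differed, since MCF10A was grown with EGF, hydrocortisone, insulin and cholera toxin beside horse serum and DCIS.COM with horse serum alone, so that line and medium cannot be told apart. Nothing in the labels says that the libraries of a group came from separate cultures, and p-values then measure only the spread between these libraries. In bulk RNA, fewer cells that express a gene and less RNA of it per cell cannot be told apart.

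AP-2 transcription factors bind GC-rich sites in DNA as dimers and set the programme of surface ectoderm, neural crest and breast epithelium. *TFAP2A* and *TFAP2C* encode AP-2alpha and AP-2gamma, the members of the family best known in the mammary gland, where AP-2gamma is tied to the luminal programme and to expression of *ERBB2* and *ESR1*. *KCTD15* and *KCTD1* encode closely related proteins with a BTB domain that bind AP-2 factors and hold back their transcriptional activity, and KCTD15 is known for restraining formation of the neural crest through AP-2 and Wnt signaling.

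Promoter sequences are shown for *KCTD1* and *TFAP2A* because they let a reader see whether the letters bound by AP-2 stand next to the starts of a gene that restrains AP-2 and of an AP-2 gene. They are the 250 bases before a RefSeq start site in GRCh38.p14, read 5′ to 3′ on the minus strand of both genes, with matches to the AP-2 motif in capitals. The windows are chr18:26549820-26550069 and chr18:26549436-26549685 for *KCTD1*, which are those of its windows with a match, and chr6:10419660-10419909 for *TFAP2A*, before its outermost start.
KCTD1, first window: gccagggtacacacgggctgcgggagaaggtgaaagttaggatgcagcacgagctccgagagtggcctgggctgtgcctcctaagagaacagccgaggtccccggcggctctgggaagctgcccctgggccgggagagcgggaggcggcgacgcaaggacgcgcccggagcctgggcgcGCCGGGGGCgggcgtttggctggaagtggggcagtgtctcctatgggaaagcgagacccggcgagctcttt
KCTD1, second window: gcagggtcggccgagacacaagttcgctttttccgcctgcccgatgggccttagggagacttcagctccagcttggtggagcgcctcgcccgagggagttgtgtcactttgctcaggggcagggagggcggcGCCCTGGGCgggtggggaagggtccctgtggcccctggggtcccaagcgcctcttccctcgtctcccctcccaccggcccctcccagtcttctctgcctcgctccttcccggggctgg
TFAP2A, outermost window: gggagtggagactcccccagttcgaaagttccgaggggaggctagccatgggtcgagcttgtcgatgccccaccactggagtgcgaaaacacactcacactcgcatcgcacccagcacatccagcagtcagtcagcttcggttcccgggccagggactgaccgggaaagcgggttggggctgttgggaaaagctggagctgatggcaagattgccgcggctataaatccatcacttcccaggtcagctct

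The AP-2 motif was searched as GCCNNNGGC and the AP-1 motif as TGANTCA, each on both strands, and both read the same on the opposite strand. The first *KCTD1* window held an AP-2 match 71 bases upstream of its start and the second window held a match 118 bases upstream. Of 4 annotated *KCTD1* windows 2 held the motif, against 0 of 2 *TFAP2A* windows. Windows of the same length held it in 19.8% of 35116 promoters and in 25.9% of the 15356 promoters of genes tested here. The AP-1 motif stood in 0 of these 6 windows and in 6.57% of all promoters. A match describes letters only, and binding was not measured. *KCTD15* and *TFAP2C* had no entry among these promoters.

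Reads counted on genes ranged from 20604377 to 37550457 per library with a median of 29210326, and *RN7SL1* and *RN7SL2* together took 8.22% to 15.7% of them. CPM are read counts scaled to a common library size, with the normalization of the authors. *MALINC1*, the transduced gene, was at most 1.51 CPM in the 4 libraries of the empty vector. It was 13.2 and 11.7 CPM in transduced MCF10A and 24.5 and 19.2 CPM in transduced DCIS.COM. The labels of the vector thus held in all 8 libraries. *MALINC1* cannot check the labels of the line, since its mean with the empty vector was 1.25 CPM in each line. All 12 epithelial markers were present in each group, with a summed level of 35149 to 35349 CPM in MCF10A pLOC-empty, 43165 to 44674 CPM in MCF10A pLOC-*MALINC1*, 11016 to 11152 CPM in DCIS.COM pLOC-empty and 12517 to 12782 CPM in DCIS.COM pLOC-*MALINC1*. Of 8 stromal markers 2 were measured, and their sum was 21.4 to 21.6 CPM in MCF10A pLOC-empty against 10.95 to 11.28 CPM with pLOC-*MALINC1*, and 8.07 to 8.16 CPM against 5.45 to 6.0 CPM in DCIS.COM. Of 7 leukocyte and endothelial markers 2 were measured, and *PTPRC* was not among them. The endothelial marker *PECAM1* fell with *MALINC1* in DCIS.COM from a mean of 6.64 to 0.132 CPM (limma adjusted p = 1.13e-08) and had 1.004 and 0.744 CPM with the vectors in MCF10A (adjusted p = 0.197). The macrophage marker *CD68* rose in DCIS.COM from 3.56 to 6.997 CPM (adjusted p = 8.21e-06) and had 11.3 and 9.17 CPM in MCF10A (adjusted p = 0.0215). Both therefore moved in the comparison in which *TFAP2A* and *TFAP2C* were tested. Of 6 luminal hormone receptor markers 3 were measured, with sums of 17.0 to 48.8 CPM over all libraries. The part of these markers in the results was not tested.

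**Figure D1:**
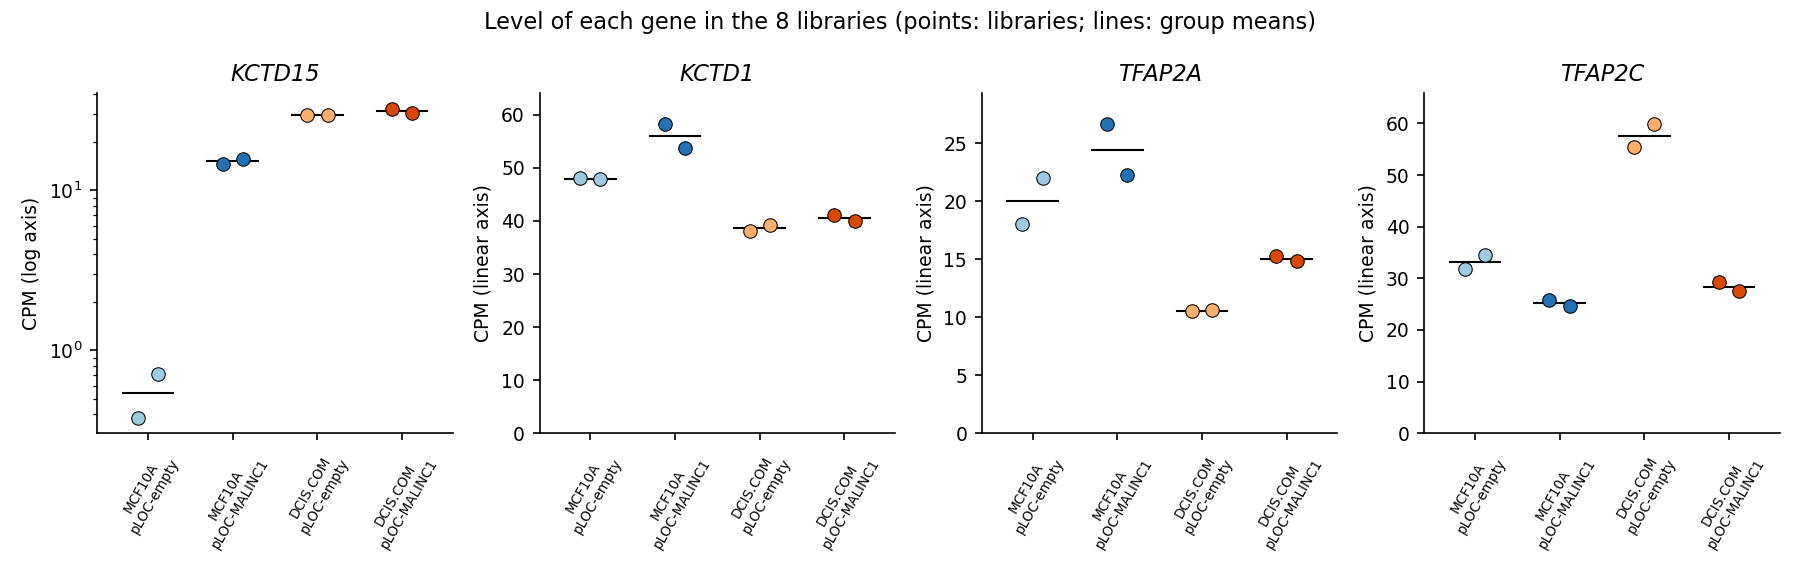
CPM of *KCTD15* (log axis), *KCTD1*, *TFAP2A* and *TFAP2C* (linear axes from 0) in the 8 libraries, with a point for each library and a line at the mean of each group of 2. *KCTD15* lies below 1 CPM in the MCF10A pLOC-empty libraries alone, and *TFAP2C* is highest in the DCIS.COM pLOC-empty libraries, at 55.5 and 59.8 CPM.

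*KCTD15* was near the lower end of detection in MCF10A with the empty vector and had 14.7 CPM or more in every other group. The gene (Entrez 79047) lies on the plus strand of chromosome 19, chr19:34286838-34306668 in GRCh37 (hg19), with 13 annotated transcripts and 6388 nt of exons. The MCF10A pLOC-empty libraries held 11 and 16 reads, or 0.379 and 0.708 CPM. The MCF10A pLOC-*MALINC1* libraries held 526 and 418 reads, or 14.7 and 15.8 CPM. Both libraries with *MALINC1* lay above both with the empty vector, which is the pattern that *KCTD15* was chosen for. The counting intervals of the empty-vector libraries (exact Poisson, 95%, counting error only) reached up to 0.679 and 1.15 CPM. They describe these low counts and test no difference between the vectors.

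In DCIS.COM the level of *KCTD15* was 29.4 CPM or more with either vector. The DCIS.COM pLOC-empty libraries held 630 and 618 reads, or 29.4 and 29.5 CPM. The DCIS.COM pLOC-*MALINC1* libraries held 1108 and 1035 reads, or 32.3 and 30.6 CPM. The groups of this line lay next to each other without overlapping, and both lay above the MCF10A pLOC-*MALINC1* libraries. Among the 13842 genes the mean level of *KCTD15* stood at the 5.88th percentile in MCF10A pLOC-empty, the 42.1st in MCF10A pLOC-*MALINC1*, the 59.4th in DCIS.COM pLOC-empty and the 61.1st in DCIS.COM pLOC-*MALINC1*.

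Between the vectors in MCF10A, *KCTD15* had a log2 fold change of 4.69 (standard error 0.18), *MALINC1* over empty, which is 25.8-fold on the log2 scale of the deposited values. It was the 2nd highest log2 fold change of that comparison, in which 2.99% of all genes were upregulated and 2.51% downregulated DEGs (Benjamini-Hochberg adjusted p below 0.01 by limma and a change over 2-fold) and 39.6% had an adjusted p below 0.01. Its size depended on the constant added before the logarithm, since a pseudocount of 1 CPM gave 3.40. In DCIS.COM, where 33.2% of all genes were called at an adjusted p below 0.01, it was 0.094 (standard error 0.18, limma adjusted p = 0.713), with a 95% interval from -0.31 to 0.50, or 0.807-fold to 1.41-fold. The width of that interval came from the shared estimate of spread, into which the low MCF10A pLOC-empty libraries enter. From the DCIS.COM libraries alone the standard error was 0.047 and the adjusted p was 0.178. The log2 fold change in DCIS.COM minus that in MCF10A was -4.59 (standard error 0.26), a comparison that called 35.9% of all genes at an adjusted p below 0.01.

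Between the lines, *KCTD15* was higher in DCIS.COM by a log2 fold change of 5.64 (standard error 0.18) with pLOC-empty and of 1.04 (standard error 0.18) with pLOC-*MALINC1*. Taken from the deposited log2 values these were 49.8-fold and 2.06-fold, on a scale that understates the folds of low genes. These comparisons share their libraries with those of the vectors.

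*KCTD1*, the close relative of *KCTD15*, was expressed in all libraries within a narrow range and was lower in DCIS.COM than in MCF10A. The gene (Entrez 284252) lies on the minus strand at chr18:24034874-24237365 in GRCh37, with 11 annotated transcripts and 8845 nt of exons. In MCF10A the level was 48.0 CPM in both libraries of the empty vector against 58.2 and 53.7 CPM with *MALINC1*. In DCIS.COM it was 38.1 and 39.3 CPM against 41.0 and 40.0 CPM. Every MCF10A library lay above every DCIS.COM library, and within each line the libraries with *MALINC1* lay above those without.

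The log2 fold change of *KCTD1* between the vectors was 0.22 (standard error 0.049) in MCF10A. It was 0.067 (standard error 0.049, limma adjusted p = 0.289) in DCIS.COM, with a 95% interval of -0.040 to 0.17. Between the lines *KCTD1* was lower in DCIS.COM with pLOC-empty, by a log2 fold change of -0.31 (standard error 0.049, limma adjusted p = 6.92e-05). With pLOC-*MALINC1* the difference was -0.46 (standard error 0.049, limma adjusted p = 1.80e-06). These comparisons of the lines called 73.9% and 73.0% of all genes at an adjusted p below 0.01, so that a called difference was the usual outcome of a gene there (36.0% and 37.2% were called lower, 37.9% and 35.7% higher). Over all libraries *KCTD15* spanned 0.379 to 32.3 CPM and *KCTD1* spanned 38.1 to 58.2 CPM.

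*TFAP2A* was highest in MCF10A and rose with *MALINC1* in DCIS.COM. It encodes AP-2alpha and lies on the minus strand at chr6:10393419-10419892 in GRCh37 (Entrez 7020), with 19 annotated transcripts and 8220 nt of exons. In MCF10A the level was 18.1 and 22.0 CPM in the libraries of the empty vector against 26.6 and 22.2 CPM with *MALINC1*. In DCIS.COM it was 10.5 and 10.6 CPM against 15.2 and 14.9 CPM. In DCIS.COM the vectors were well apart, whereas in MCF10A the higher pLOC-empty library and the lower pLOC-*MALINC1* library nearly touched.

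In DCIS.COM the log2 fold change of *TFAP2A* between the vectors was 0.51 (standard error 0.10, limma adjusted p = 0.00149), or 1.42-fold. At an adjusted p below 0.01, 16.4% of all genes were higher in that comparison. The call was lost when a DCIS.COM library was left out, with adjusted p of 0.0147 and 0.0130 without pLOC-empty replicates 1 and 2 and of 0.0167 and 0.0117 without pLOC-*MALINC1* replicates 1 and 2, although the log2 fold change stayed between 0.49 and 0.52. It was also lost in limma without a trend (adjusted p = 0.0203). In MCF10A the log2 fold change was 0.28 (standard error 0.10), and leaving out a library moved it between 0.14 and 0.43. The difference of the log2 fold changes, DCIS.COM minus MCF10A, was 0.22 (standard error 0.14).

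Between the lines, *TFAP2A* was lower in DCIS.COM by a log2 fold change of -0.91 (standard error 0.10, limma adjusted p = 3.04e-06) with pLOC-empty. With pLOC-*MALINC1* it was lower by -0.69 (standard error 0.10, limma adjusted p = 4.25e-05). The antisense genes TFAP2A-AS1 and TFAP2A-AS2 share 438 and 941 bases of exon with *TFAP2A* on the opposite strand. Neither was found by symbol among the genes with a measured level. The strand setting of the counting is not given in the sources used here, so reads of *TFAP2A* and of these genes cannot be told apart.

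*TFAP2C*, which encodes AP-2gamma, fell with *MALINC1* in DCIS.COM. The gene (Entrez 7022) lies on the plus strand at chr20:55204362-55214339 in GRCh37, with 2 annotated transcripts and 3001 nt of exons. In DCIS.COM the level was 55.5 and 59.8 CPM in the libraries of the empty vector against 29.3 and 27.5 CPM with *MALINC1*. In MCF10A it was 31.9 and 34.6 CPM against 25.9 and 24.6 CPM. In both lines the libraries with *MALINC1* lay below those with the empty vector, and the DCIS.COM pLOC-empty libraries stood above all others.

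In DCIS.COM the log2 fold change of *TFAP2C* between the vectors was -1.02 (standard error 0.061, limma adjusted p = 6.58e-08), or 2.03-fold lower, which made it a downregulated DEG in a comparison where 3.08% of all genes were, and 1.44% were upregulated DEGs. The 428th lowest log2 fold change of the comparison was that of *TFAP2C*. Its adjusted p stayed below 0.01 in 19 of 19 alternative analyses, but the change is close to the 2-fold limit, and it was a DEG in 15 of them. Without DCIS.COM pLOC-empty replicate 2 the log2 fold change was -0.97 and without DCIS.COM pLOC-*MALINC1* replicate 2 it was also -0.97, both short of 2-fold. In MCF10A the log2 fold change was -0.40 (standard error 0.061). The difference of the log2 fold changes, DCIS.COM minus MCF10A, was -0.62 (standard error 0.087).

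Between the lines, *TFAP2C* was higher in DCIS.COM with pLOC-empty, by a log2 fold change of 0.79 (standard error 0.061, limma adjusted p = 7.92e-08). With pLOC-*MALINC1* the difference was 0.17 (standard error 0.061, limma adjusted p = 0.0235), with a 95% interval of 0.034 to 0.30, and did not pass the threshold of 0.01. It passed under quantile normalization (0.23, adjusted p = 0.00424) and with totals that leave out *RN7SL1* and *RN7SL2* (0.35, adjusted p = 0.000197). The latter scaling moved the median of all genes by 0.11 (pLOC-empty) and 0.18 (pLOC-*MALINC1*) in the comparisons of the lines.

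**Figure D2:**
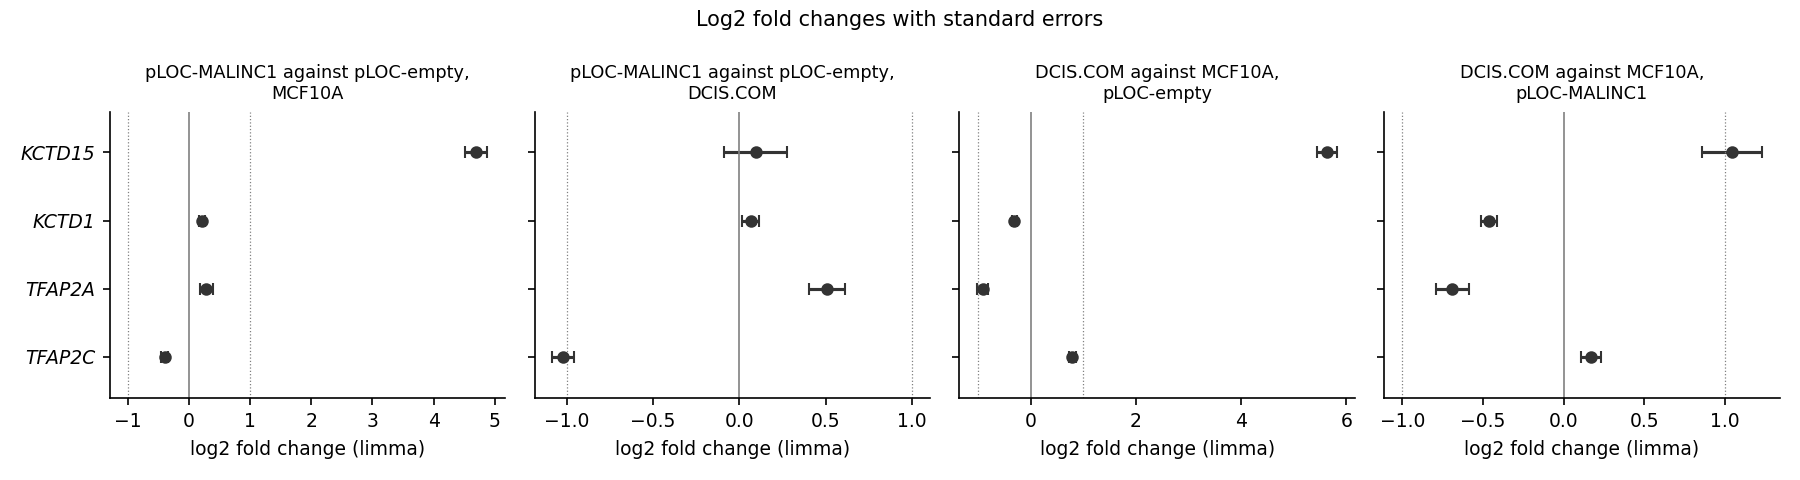
Log2 fold changes of the 4 genes (points) with limma's standard errors (bars) between pLOC-*MALINC1* and pLOC-empty in each line and between DCIS.COM and MCF10A with each vector. Solid lines mark no change and dotted lines a 2-fold change, and each panel has its own scale. In DCIS.COM, *TFAP2C* lies at -1.02 and *TFAP2A* at 0.51, while *KCTD15* (0.094) and *KCTD1* (0.067) lie next to 0.

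Per length, *TFAP2C* was the more abundant AP-2 transcript in each library, and its share of both AP-2 transcripts was lower with *MALINC1* in either line. In CPM per kb of annotated exons, *TFAP2C* had 11.1 ± 0.632 in MCF10A pLOC-empty, 8.41 ± 0.304 in MCF10A pLOC-*MALINC1*, 19.2 ± 1.03 in DCIS.COM pLOC-empty and 9.45 ± 0.427 in DCIS.COM pLOC-*MALINC1* (mean ± SD, n = 2). In the same groups and order *TFAP2A* had 2.44 ± 0.339, 2.97 ± 0.378, 1.29 ± 0.0131 and 1.83 ± 0.0315 CPM per kb. The share of *TFAP2C* in the sum of both was 82.9% and 81.1% in MCF10A with the empty vector and 72.7% and 75.2% there with *MALINC1*. It was 93.5% and 93.9% in DCIS.COM with the empty vector and 84.0% and 83.5% there with *MALINC1*. The share was thus highest in DCIS.COM with the empty vector and lowest in MCF10A with *MALINC1*, and the groups between these, MCF10A pLOC-empty and DCIS.COM pLOC-*MALINC1*, lay near each other.

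The summed AP-2 level was 13.5 ± 0.971 CPM per kb in MCF10A pLOC-empty, 11.4 ± 0.683 in MCF10A pLOC-*MALINC1*, 20.49 ± 1.04 in DCIS.COM pLOC-empty and 11.3 ± 0.459 in DCIS.COM pLOC-*MALINC1*. With *MALINC1* the sums of the lines differed by less than the SD of either group. The share depends on the transcript length taken, because the exons of *TFAP2A* belong to many alternative transcripts. With the longest annotated transcript of each gene (3831 nt for *TFAP2A* and 2862 nt for *TFAP2C*, chosen after seeing the data) the shares of *TFAP2C* became 69.0%, 58.1%, 87.9% and 71.6% in the same order of groups, and *TFAP2C* stayed the more abundant transcript in all 4.

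**Figure D3:**
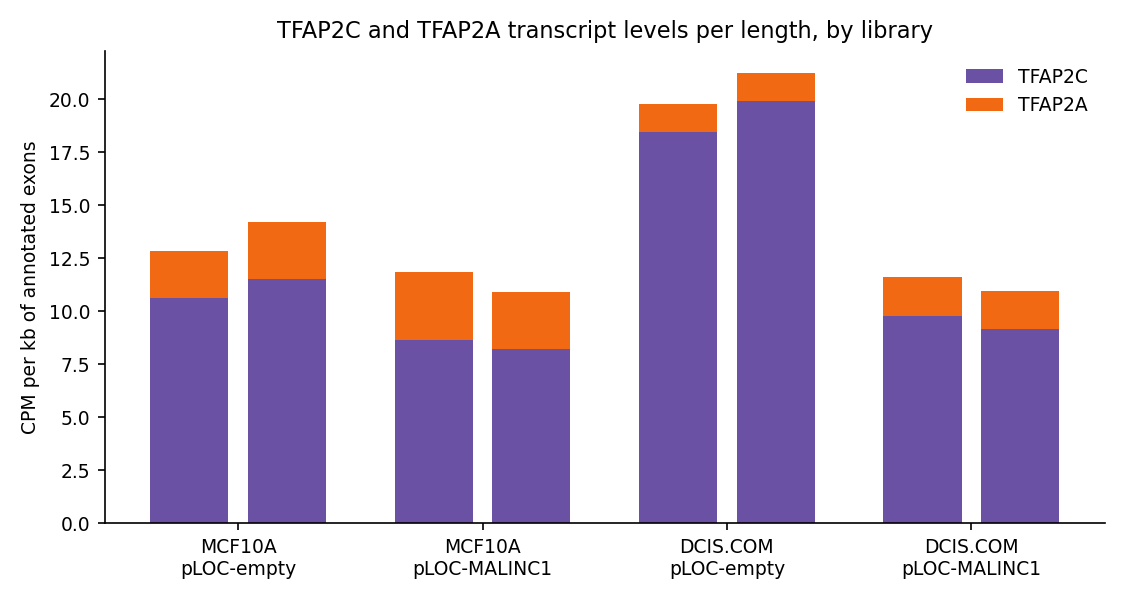
Stacked bars give the level of *TFAP2C* and *TFAP2A* in CPM per kb of annotated exons for each of the 8 libraries, from 0. The DCIS.COM pLOC-empty bars are the tallest, at 19.8 and 21.2, and the other 6 libraries sum to between 10.9 and 14.2.

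Per length, *KCTD15* was nearer to the level of *KCTD1* in DCIS.COM than in MCF10A, and the ratio depended on the length taken. The ratio of *KCTD15* to *KCTD1* in CPM per kb was 0.0109 and 0.0205 in MCF10A with the empty vector and 0.349 and 0.407 there with *MALINC1*. It was 1.07 and 1.04 in DCIS.COM with the empty vector and 1.09 and 1.058 there with *MALINC1*. With the longest annotated transcripts the group means of this ratio were 0.0106, 0.255, 0.710 and 0.724, in the same order of groups.

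The log2 CPM of *KCTD1* and *TFAP2A* ran together over the 8 libraries (Pearson r = 0.94, Spearman rho = 0.98), and those of *TFAP2A* and *TFAP2C* ran against each other (r = -0.81, rho = -0.71). *KCTD15* had r = -0.39 with *KCTD1*, -0.44 with *TFAP2A* and 0.15 with *TFAP2C*. These are descriptions of 4 pairs of libraries, which share their cell line and vector.

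Among 11497 genes with at least 5 CPM in their highest group, those whose log2 CPM followed *KCTD15* most closely over the 8 libraries included *MAPRE2* (r = 0.998), *RADX* (r = 0.995), *MAPK6* (r = 0.995) and *TGFA* (r = 0.994). *MAPRE2* encodes a microtubule end-binding protein, *RADX* a single-stranded DNA-binding protein of replication forks, *MAPK6* an atypical MAP kinase and *TGFA* a ligand of the EGF receptor. *MAPRE2* had 0.893 ± 0.239 CPM in MCF10A pLOC-empty, 4.48 ± 0.391 in MCF10A pLOC-*MALINC1*, 6.22 ± 0.431 in DCIS.COM pLOC-empty and 6.27 ± 0.169 in DCIS.COM pLOC-*MALINC1*. *RADX* had 0.448 ± 0.243, 4.89 ± 0.611, 8.86 ± 0.855 and 7.96 ± 0.436 CPM in the same groups. Both genes, like *KCTD15*, had their only low level in MCF10A with the empty vector. For *MAPK6* the pattern was the same but shallow, with a log2 fold change between the vectors of 0.40 in MCF10A. With Spearman's rho in place of r, 28 genes reached a rho of 1 and 0 of these 4 genes were among them, so the choice of genes depends on the measure.

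**Figure D4:**
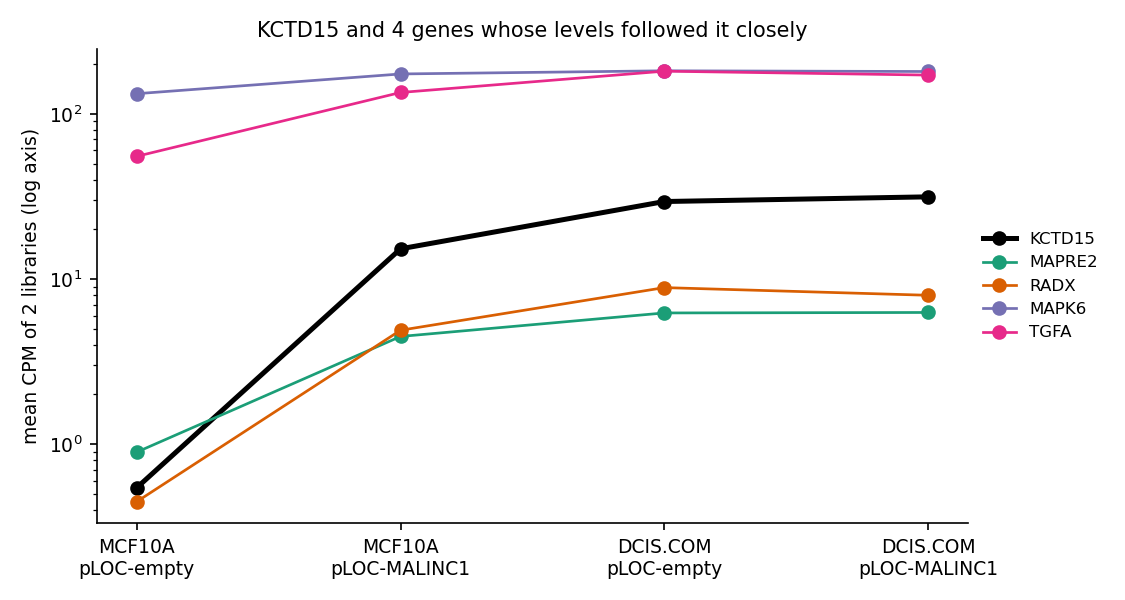
Mean CPM of 2 libraries (log axis) in the 4 groups for *KCTD15* and 4 genes with high Pearson correlations with it (r of 0.994 to 0.998), with lines drawn only to join the points of a gene. Each gene has its lowest mean in MCF10A pLOC-empty, from 0.448 CPM (*RADX*) to 132 CPM (*MAPK6*).

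The tested genes nearest to the members on the chromosome moved in differing directions between the vectors. *PEPD* lies 274 kb from *KCTD15* and was lower with *MALINC1* in MCF10A, by a log2 fold change of -0.43 (standard error 0.079, limma adjusted p = 0.000644). This call was lost when the 4 MCF10A libraries were fitted alone (limma adjusted p = 0.0205). In DCIS.COM *PEPD* had 0.18 (adjusted p = 0.0855). *LSM14A*, 357 kb away on the other side, had log2 fold changes of 0.019 (adjusted p = 0.690) in MCF10A and 0.17 (adjusted p = 0.00296) in DCIS.COM, the latter lost without any 1 of the 4 DCIS.COM libraries (adjusted p 0.0167 to 0.0230). *TAF4B*, 63.2 kb from *KCTD1*, rose in MCF10A by 0.85 (adjusted p = 4.23e-06) and had 0.23 (adjusted p = 0.0439) in DCIS.COM. *GCNT2*, 72.6 kb from *TFAP2A*, rose by 0.66 in MCF10A (adjusted p = 3.51e-05), a call lost with the 4 MCF10A libraries fitted alone (adjusted p = 0.0117). In DCIS.COM *GCNT2* fell by 0.49 (adjusted p = 0.000463), a call lost in limma without a trend (adjusted p = 0.0115). Without DCIS.COM pLOC-empty replicate 2 that log2 fold change was -0.40. *RTF2*, 110 kb from *TFAP2C*, had 0.058 (adjusted p = 0.299) in MCF10A and 0.011 (adjusted p = 0.867) in DCIS.COM. *CHST9*, 249 kb from *KCTD1*, had 0 reads in MCF10A and a log2 fold change of 0.32 (adjusted p = 0.411) in DCIS.COM.

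Of the other KCTD genes, adaptors that mostly join targets to cullin ubiquitin ligases, 18 of 22 were measured. In MCF10A 1 was an upregulated DEG and 0 were downregulated DEGs, where 5.5% of all genes were DEGs. *KCTD12*, an auxiliary subunit of GABA-B receptors, rose there from 10.98 ± 0.811 to 39.2 ± 0.265 CPM (log2 fold change 1.83, standard error 0.065, limma adjusted p = 5.55e-10), and had 22.3 and 23.2 CPM with the vectors in DCIS.COM (log2 fold change 0.055, adjusted p = 0.524). The difference of these log2 fold changes, DCIS.COM minus MCF10A, was -1.78 (standard error 0.092, limma adjusted p = 1.35e-08).

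In DCIS.COM 1 KCTD gene was a downregulated DEG and 0 were upregulated, where 4.53% of all genes were DEGs. It was *KCTD4*, which went from 1.37 ± 0.311 to 0.176 ± 0.0397 CPM (log2 fold change -2.53, standard error 0.61, limma adjusted p = 0.00459), and its call was lost without any 1 of the 4 DCIS.COM libraries (adjusted p 0.0237 to 0.0457). At any fold change 1 KCTD gene was higher and 8 were lower in DCIS.COM at an adjusted p below 0.01, against 16.4% and 16.7% of all genes, with a median log2 fold change of -0.13 (0.0089 over all genes). The gene that was higher was *KCTD6* (0.58, adjusted p = 0.000850). In MCF10A 4 were higher (*KCTD5*, *KCTD10*, *KCTD12* and *KCTD14*) and 2 lower (*KCTD3* and *KCTD7*), against 21.5% and 18.1% of all genes, with a median of -0.033 (0 over all genes). These genes other than *KCTD12* and *KCTD4* were named after their values were seen. The remaining AP-2 genes, *TFAP2B*, *TFAP2D* and *TFAP2E*, were not found by symbol among the 13842 genes with a measured level.

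Of all genes 2.99% were upregulated and 2.51% downregulated DEGs in MCF10A, and 1.44% and 3.08% in DCIS.COM. Of 14 cofactors of AP-2, all measured, 1 was an upregulated DEG in each line and 0 were downregulated DEGs. It was *CITED1*, a CBP/p300-binding coactivator, which went from 0.180 ± 0.0590 to 0.830 ± 0.268 CPM in MCF10A (log2 fold change 1.83, standard error 0.29, limma adjusted p = 0.000197), a call lost when the 4 MCF10A libraries were fitted alone (adjusted p = 0.0130). Its log2 fold change there ranged from 0.63 to 2.14 over the alternatives, and it was a DEG in 16 of 19. In DCIS.COM it went from 1.08 ± 0.182 to 2.65 ± 0.616 CPM (log2 fold change 1.23, standard error 0.29, limma adjusted p = 0.00405). The latter call was lost without DCIS.COM pLOC-empty replicate 1 or 2 (adjusted p = 0.0121 and 0.0404) or pLOC-*MALINC1* replicate 1 (adjusted p = 0.0530), and the level was low throughout. *CITED2*, the coactivator best known for AP-2, was lower with *MALINC1* in both lines, by log2 fold changes of -0.53 (adjusted p = 0.000179) in MCF10A and -0.90 (adjusted p = 2.65e-06) in DCIS.COM, and was named after its values were seen. At any fold change 3 cofactors were higher and 3 lower in MCF10A, where 39.6% of all genes were called, and 1 was higher and 2 lower in DCIS.COM, where 33.2% were. Others among them, also named after their values were seen, were *SUB1* and *NPM1* (higher) and *DEK* (lower) in MCF10A and *NPM1* (lower) in DCIS.COM. The median log2 fold change was -0.057 in MCF10A and 0.030 in DCIS.COM.

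Of 22 genes commonly named as AP-2 targets 20 were measured, and they moved in both directions. In MCF10A 2 were upregulated DEGs and 0 were downregulated DEGs, against 2.99% and 2.51% of all genes. *KRT14*, a basal keratin, went from 1452 ± 38.9 to 2922 ± 45.0 CPM (log2 fold change 1.01, standard error 0.039, limma adjusted p = 1.19e-09), and *TGFA* from 55.3 ± 1.31 to 135 ± 2.79 CPM (log2 fold change 1.28, standard error 0.035, limma adjusted p = 6.31e-11). The change of *KRT14* is close to the 2-fold limit, at 0.98 without MCF10A pLOC-empty replicate 2 and 0.99 without pLOC-*MALINC1* replicate 1. In DCIS.COM 1 target was an upregulated and 1 a downregulated DEG, against 1.44% and 3.08% of all genes. *MMP2*, a gelatinase, fell from 14.2 ± 0.334 to 6.87 ± 0.0298 CPM (log2 fold change -1.04, standard error 0.098, limma adjusted p = 3.53e-06).

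*IGFBP5*, an IGF-binding protein, went from 1.057 ± 0.550 to 2.71 ± 0.532 CPM in DCIS.COM (log2 fold change 1.380, standard error 0.36, limma adjusted p = 0.00708) and had 0 reads in MCF10A. Its call was lost without MCF10A pLOC-*MALINC1* replicate 2 (adjusted p = 0.01001), DCIS.COM pLOC-empty replicate 2 (0.0710) or DCIS.COM pLOC-*MALINC1* replicates 1 (0.0688) and 2 (0.0210). *ERBB2*, the receptor tyrosine kinase most often linked to AP-2, was named after its values were seen. It was lower with *MALINC1* in MCF10A (log2 fold change -0.42, adjusted p = 2.77e-06) and higher in DCIS.COM (0.37, adjusted p = 1.04e-05). At any fold change 7 targets were higher and 4 lower in MCF10A, where 21.5% of all genes were higher and 18.1% lower. In DCIS.COM 7 were higher and 5 lower, where 16.4% of all genes were higher and 16.7% lower. The 7 higher in MCF10A were *EGFR*, *CDKN1A*, *KRT5*, *KRT14*, *GPX1*, *CD44* and *TGFA*, and the 7 higher in DCIS.COM were *ERBB2*, *ESR1* (log2 fold change 0.75), *CDH1* (0.59), *KRT5*, *KRT7* (0.61), *BCL2* (0.78) and *IGFBP5*. The 4 lower in MCF10A were *ERBB2*, *ERBB3*, *KRT7* and *VEGFA*, and the 5 lower in DCIS.COM were *CDKN1A*, *KRT14*, *GPX1*, *VEGFA* and *MMP2*, and those of all these genes other than *KRT14*, *TGFA*, *MMP2* and *IGFBP5* were also named after their values were seen. The median log2 fold change was 0.093 in MCF10A and 0.054 in DCIS.COM.

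Of 14 neural crest genes, the programme that KCTD15 is known to restrain, 7 were measured. DEGs made up 5.5% of all genes in MCF10A and 4.53% in DCIS.COM. *SOX9*, a transcription factor of the neural crest and of mammary progenitors, rose in MCF10A from 22.3 ± 0.516 to 47.3 ± 3.01 CPM (log2 fold change 1.08, standard error 0.049, limma adjusted p = 5.23e-09), as the only DEG of the list there. In DCIS.COM it rose by 0.47 (adjusted p = 9.10e-06), less than 2-fold. *SNAI2*, a repressor of epithelial genes, fell in DCIS.COM from 16.2 ± 0.0664 to 8.04 ± 0.457 CPM (log2 fold change -1.004, standard error 0.069, limma adjusted p = 2.20e-07) and in MCF10A by 0.33 on the log2 scale (adjusted p = 0.00158). As its change stood at the 2-fold limit, it was no DEG without DCIS.COM pLOC-empty replicate 2 (-0.9995) or pLOC-*MALINC1* replicate 1 (-0.95). At any fold change 2 genes were higher and 2 lower in MCF10A, against 21.5% and 18.1% of all genes, and 1 was higher and 2 lower in DCIS.COM, against 16.4% and 16.7%. Of these *ETS1* (higher in MCF10A, lower in DCIS.COM) and *TWIST1* (lower in MCF10A) were named after their values were seen. The median log2 fold change was 0 in MCF10A and -0.14 in DCIS.COM. In MCF10A it was the value of *MSX2*, which had 0 CPM there and was named after its values were seen.

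Of 12 surface ectoderm factors, which act beside AP-2 in stratified epithelium, all were measured. In MCF10A 4 were upregulated DEGs and 0 downregulated, against 2.99% and 2.51% of all genes. *TP63*, the master factor of basal epithelium, rose from 4.92 ± 0.450 to 40.9 ± 1.11 CPM (log2 fold change 3.04, standard error 0.065, limma adjusted p = 1.08e-11), and had 56.6 and 49.6 CPM with the vectors in DCIS.COM (log2 fold change -0.19, adjusted p = 0.0291). *TP63* had, like *KCTD15*, a higher level in the DCIS.COM pLOC-empty libraries than in the MCF10A pLOC-empty libraries.

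*GRHL3*, a grainyhead factor of epidermal closure, rose in both lines. It went from 4.50 ± 0.271 to 12.3 ± 1.97 CPM in MCF10A (log2 fold change 1.43, standard error 0.15, limma adjusted p = 5.83e-06) and from 2.498 ± 0.292 to 7.32 ± 0.899 CPM in DCIS.COM (1.52, standard error 0.15, limma adjusted p = 4.35e-06). *CEBPA*, a factor of epithelial differentiation, had 0 reads in the MCF10A pLOC-empty libraries and at most 7 reads in a pLOC-*MALINC1* library. The mean with *MALINC1*, 0.188 ± 0.108 CPM, was 1.59-fold a floor of 3 reads per library, without counting error. The DEG call of *CEBPA* in MCF10A (limma adjusted p = 0.000129) did not pass when 0.5 or 1 CPM was added before the logarithm (adjusted p = 0.0150 and 0.0693). In DCIS.COM *GRHL3* and *OVOL1* were the 2 upregulated DEGs, and 0 were downregulated, against 1.44% and 3.08% of all genes. *OVOL1*, a zinc finger factor of epithelial identity, went from 2.62 ± 0.190 to 5.33 ± 0.118 CPM (log2 fold change 1.01, standard error 0.10, limma adjusted p = 7.99e-06). It was no DEG without DCIS.COM pLOC-empty replicate 2 (0.93) or pLOC-*MALINC1* replicate 2 (0.98).

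At any fold change 4 of the surface ectoderm factors were higher and 1 lower in MCF10A, where 39.6% of all genes were called, and 6 were higher and 2 lower in DCIS.COM, where 33.2% were. *CEBPB* was lower in both lines (log2 fold changes -0.26 and -0.56, adjusted p = 0.000622 and 1.60e-06) and was named after its values were seen. The median log2 fold change was 0.16 in MCF10A, where that of all genes was 0, and 0.41 in DCIS.COM, where that of all genes was 0.0089.

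Of 12 beta-catenin targets, a readout of the Wnt pathway on which KCTD15 is known to act, 7 were measured. *MYC* rose in MCF10A from 108 ± 0.0258 to 246 ± 11.4 CPM (log2 fold change 1.19, standard error 0.045, limma adjusted p = 9.81e-10) and in DCIS.COM by 0.37 (adjusted p = 3.10e-05). *LEF1*, *TCF7* and *TCF7L2* encode DNA-binding factors of the pathway. In DCIS.COM *LEF1* rose from 3.65 ± 0.374 to 8.61 ± 0.110 CPM (log2 fold change 1.22, standard error 0.30, limma adjusted p = 0.00580), a call lost without any 1 of the 4 DCIS.COM libraries (adjusted p 0.0233 to 0.0484). *TCF7* fell from 5.47 ± 0.110 to 2.27 ± 0.412 CPM (log2 fold change -1.25, standard error 0.23, limma adjusted p = 0.000823), a call lost without DCIS.COM pLOC-*MALINC1* replicate 2 (adjusted p = 0.0143). *TCF7L2*, named after its values were seen, had 8.06 and 10.8 CPM with the vectors in DCIS.COM (log2 fold change 0.43, adjusted p = 0.0149). In MCF10A *LEF1* had at most 2 reads in a library.

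At any fold change 3 of these targets were higher (*MYC*, *ZNRF3* and *CCND1*) and 0 lower in MCF10A, where 21.5% of all genes were higher and 18.1% lower. The median log2 fold change there, 0.42, was the value of *TCF7*, at 0.677 and 0.958 CPM with the vectors (limma adjusted p = 0.149). In DCIS.COM 2 were higher (*LEF1* and *MYC*) and 3 lower (*TCF7*, *RNF43* and *CCND1*), where 16.4% of all genes were higher and 16.7% lower, with a median of 0.13. *ZNRF3*, *CCND1* and *RNF43* were named after their values were seen.

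**Figure D5:**
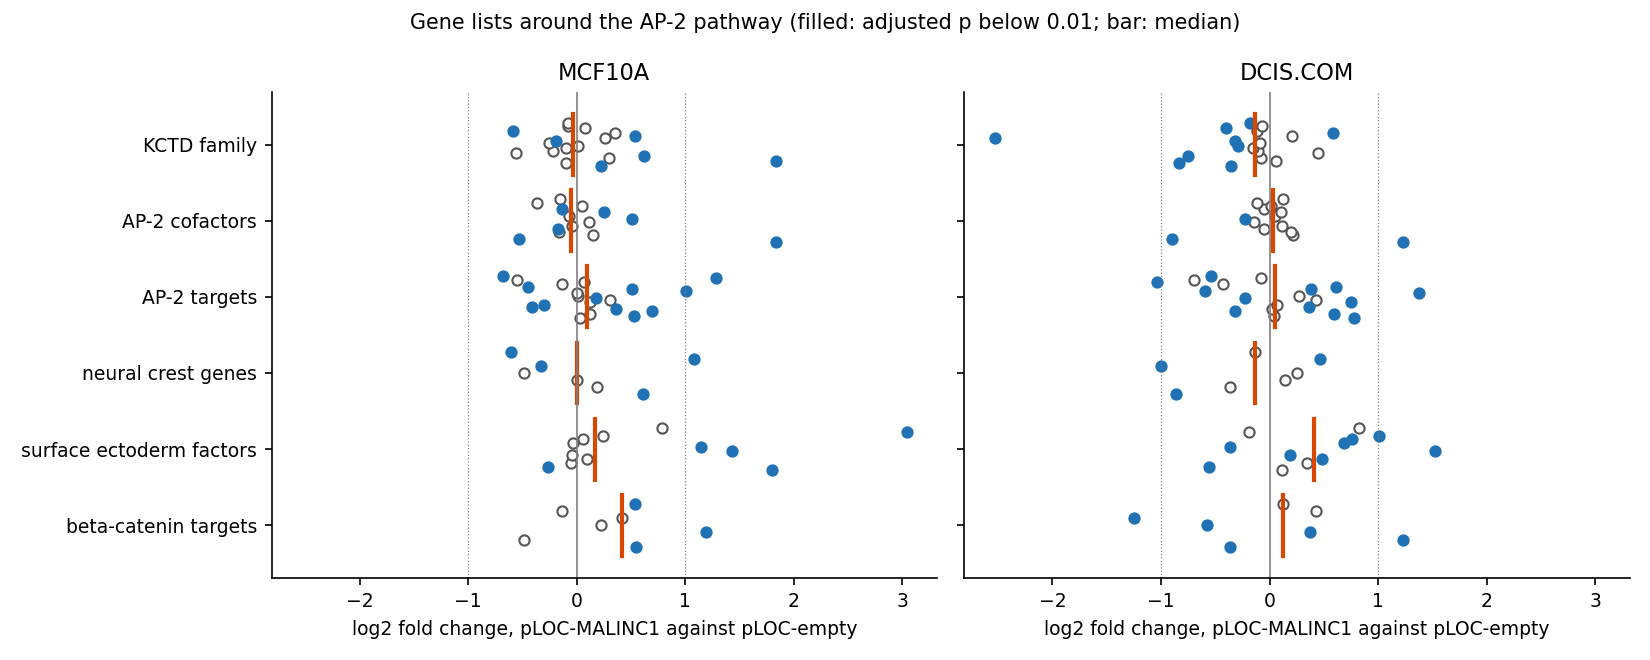
Log2 fold change with *MALINC1*, relative to the empty vector, of each measured gene in 6 lists (rows), in MCF10A (left) and DCIS.COM (right). Filled points have a limma adjusted p below 0.01, open points do not, orange bars are the medians of the lists and dotted lines mark a 2-fold change. The median is highest for the beta-catenin targets in MCF10A (0.42) and for the surface ectoderm factors in DCIS.COM (0.41). The former is the value of a single gene, *TCF7*, which had a mean below 1 CPM with either vector in MCF10A and was not called there.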

How the data were processed

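The 8 RNA-seq libraries were put in 4 groups by their titles (each line with each vector). The authors mapped paired-end reads to hg19 (Rsubread), obtained gene counts for the UCSC annotation (featureCounts) and deposited log2 CPM computed with edgeR. Versions, the strand setting and the filter on low expression are not given in the sources used here. Values below 1 read per library come from the prior count, so a gene without reads has 0.0713 CPM in every library. Removing it gave whole reads for 100% of values up to 1000 reads (within 0.1 read), and CPM printed are these reads on the scale of the authors.

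For the tests, limma 3.58.1 (R 4.3.3) was run on the deposited log2 CPM (4 group means, eBayes with a trend, 7.98 prior and 4 residual degrees of freedom, Benjamini-Hochberg adjustment), over all 13842 genes, each of which passed the filter of 0.5 CPM in 2 libraries. Genes were called at an adjusted p below 0.01, and as DEGs with a change over 2-fold as well. The steps were checked on simulated data. Fold changes are on the deposited log2 scale, which understates those of low genes. Python 3.11.15, numpy 2.4.6, pandas 2.3.3, scipy 1.17.1 and matplotlib 3.10.9 were used. Positions and exon lengths are those of GENCODE on GRCh37, to which 13025 genes (94.1%) were matched, and promoters those of RefSeq. Reads were counted on the UCSC annotation, so levels per kb may divide by exons that were not counted.

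The members and gene lists were chosen with earlier results of these data known. The text names the members, genes among the 5 most correlated with *KCTD15*, the DEGs of each list with at least 1 CPM in the highest group, the nearest tested gene on either side within 500 kb, *MALINC1*, *RN7SL1* and *RN7SL2*, and further genes where it says so, and some genes within these rules are not reported here. Replicate libraries had Pearson correlations of 0.996 to 0.997 and a chi-square per degree of freedom of 3.30 to 20.6, beyond counting noise. Alternatives changed the pseudocount, filter, scaling, model, samples and call rule, and left out single libraries, where the lone sample of a group is assumed to vary like the other groups. RT-qPCR and migration data were not used here.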

Additional observations from a re-analysis of the deposited data

Results flagged for a closer look

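For 12 genes of the lists around the AP-2 pathway, the log2 fold change with *MALINC1* differed between the lines. This was limma's test of the difference itself (adjusted p below 0.01, as for 35.9% of all genes). Given as the log2 fold change in DCIS.COM minus that in MCF10A, the difference was -3.23 for *TP63*, -1.78 for *KCTD12*, -1.67 for *TCF7*, -1.60 for *KRT14*, -1.36 for *TGFA* and -1.10 for *MMP2*. It was -0.82 for *MYC*, -0.67 for *SNAI2* and -0.62 for *SOX9*, and -1.68 for *CEBPA*, which had at most 7 reads in an MCF10A library. It was above 0 for *OVOL1* (0.77) and for *LEF1* (1.71), which had at most 2 reads in an MCF10A library.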

How the results depend on the processing

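The number of genes called at an adjusted p below 0.01 in the comparisons of the vectors, 5485 in MCF10A and 4592 in DCIS.COM, became 3101 and 2559 when the 4 libraries of a line were fitted alone, and 2915 in DCIS.COM without limma's trend. A pseudocount of 1 CPM left 416 and 368 DEGs in place of 761 and 627. With the replicate number as a block within each line, 764 and 629 genes were DEGs. In this balanced design the block leaves each log2 fold change as it was (4.69 for *KCTD15* in MCF10A) and moves only the error. The numbers pair nothing that the labels name, and the deviations of libraries with the same number had a correlation of -0.067 in MCF10A and 0.035 in DCIS.COM over all genes. The block and the crossed numbers in MCF10A (766 and 627 DEGs, chosen after seeing the data) ended no call of a member.

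The log2 fold change of *KCTD15* in MCF10A was 3.93 and 3.40 with pseudocounts of 0.5 and 1 CPM, against 4.86 and 4.31 between the lines with pLOC-empty. Between the lines with pLOC-*MALINC1* it was 1.22 with totals that leave out *RN7SL1* and *RN7SL2*. The difference of its log2 fold changes with *MALINC1* between the lines was -3.84 and -3.31 with these pseudocounts and -4.20 under quantile normalization. It was -4.99 to -4.20 with a library left out. That difference was -0.079 for *KCTD1* and -0.55 for *TFAP2C* without *RN7SL1* and *RN7SL2* in the totals. With a library left out it lay between -0.21 and -0.095 for *KCTD1* and between 0.080 and 0.36 for *TFAP2A*. For *TFAP2A* between the vectors in DCIS.COM, 0.51 lost its call without the trend, and the log2 fold change was 0.49 to 0.52 with a library left out. *TFAP2C* between the lines with pLOC-*MALINC1* gained a call at 0.23 under quantile normalization and at 0.35 without *RN7SL1* and *RN7SL2*. The cause of these shifts was not tested.

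Without the 2-fold limit, 39.6% of all genes were called in MCF10A and 33.2% in DCIS.COM, in place of 5.5% and 4.53%. In that order of lines the calls became 6 and 9 of 18 measured KCTD genes and 6 and 3 of 14 AP-2 cofactors. They became 11 and 12 of 20 AP-2 targets, 4 and 3 of 7 neural crest genes and 3 and 5 of 7 beta-catenin targets. Among 12 surface ectoderm factors 8 were called in DCIS.COM. Neighbouring genes with values next to 0 changed sign, *LSM14A* in MCF10A (-0.038 under quantile normalization, -0.021 without *RN7SL1* and *RN7SL2*, and -0.023 to 0.062 with a library left out), *RTF2* in DCIS.COM (-0.047 to 0.068 with a library left out) and *CHST9* in DCIS.COM (-0.0061 to 0.65 with a library left out). Tests of edgeR and DESeq2 on recovered reads were not run, and limma's voom on those reads, chosen after seeing the data, gave 4.86 for *KCTD15* in MCF10A. In limma without a trend the DCIS.COM calls of *IGFBP5* (adjusted p = 0.0211), *CITED1* (0.0199), *KCTD4* (0.0452) and *LEF1* (0.0222) were lost. With the 4 libraries of a line fitted alone, *IGFBP5* (0.0484) and *CITED1* (0.0155) in DCIS.COM and *CEBPA* in MCF10A (0.0166) lost theirs. Quantile normalization ended those of *KCTD4* (0.0204) and *LEF1* (0.0111) in DCIS.COM. With 2 libraries per group, low genes such as *KCTD4*, *CEBPA* and *LEF1* are the least certain.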
